A study of Rattus norvegicus with 24 samples.

Results

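Expression of 6 genes of cholesterol synthesis, Hmgcs1, Pmvk, Idi1, Fdps, Fdft1 and Sqle, was examined in rat mesenteric artery, out of 6455 genes that had at least 1 probe with a single gene symbol on the arrays. Members were taken by symbol, and every probe with one of these names as its only symbol was kept apart. This gave 8 probes for 5 of the 6 genes, out of 10399 probes. Sqle, Fdft1 and Idi1 had 2 probes each, Fdps and Pmvk had 1 each, and all 8 passed the filter on missing values, as did 10228 probes in all. Hmgcs1 was not analysed here, since no probe carried it as a single symbol. The members are all enzymes of synthesis, and genes of cholesterol uptake were described beside them from a separate list.

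The arteries came from 3 groups of 4 female Sprague Dawley rats, and every rat, controls included, had lost its ovaries at 3 weeks of age and had recovered for 2 weeks. Intraperitoneal injections over 4 days contained estradiol benzoate (an ester of the main estrogen) at 0.15 mg/kg/day, testosterone (an androgen that tissues can turn into estrogen) at 1 mg/kg/day, or only the sesame oil vehicle, and the rats were 5.5 weeks old. RNA of each rat was read on 2 CodeLink arrays, named AA and AB, which share a cRNA, so that the 24 arrays describe 12 animals. Levels are log2 of the authors' scaled intensity, averaged over the 2 arrays of an animal, and animals carry the numbers of their labels.

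Cells make cholesterol from acetyl-CoA by the mevalonate pathway. Hmgcs1 forms HMG-CoA, HMG-CoA reductase turns it into mevalonate, and mevalonate kinase and Pmvk phosphorylate it in turn. Decarboxylation by Mvd then gives isopentenyl diphosphate, which Idi1 isomerises and Fdps joins into farnesyl diphosphate, the branch point to isoprenoids. Fdft1, squalene synthase, commits farnesyl diphosphate to sterols, and Sqle, squalene epoxidase, oxidises squalene before the ring closes. SREBP-2, a factor released from the endoplasmic reticulum when sterols are scarce, is known to drive most of these genes together.

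Every array had its median between 0.926 and 0.951 on the linear scale. Artery genes were measured in all groups. The brightest of their lists were Cnn1 and Pecam1: Cnn1, a smooth muscle calponin, averaged 5.0 in estradiol benzoate, 5.09 in testosterone and 5.25 in vehicle arteries, and Pecam1, an endothelial adhesion molecule, averaged 4.79, 4.90 and 4.94 in the same groups. Of the listed markers, 6 of 16 for smooth muscle and 9 of 12 for endothelium were measured, and some of these were dim, such as Tpm1 and Kdr, named after their values were seen. Samples also differed in genes of neighbouring tissue. The summed intensity of 8 pancreatic acinar markers was 100.6 in estradiol benzoate animal 3, against 0.431 to 4.87 in the other 11 animals. That of the 11 hepatocyte markers with a value in every animal was 35.9 in vehicle animal 5. It was 7.04, 4.80 and 2.32 in vehicle animals 3, 4 and 8. Under estradiol benzoate it was 2.50 to 2.73, and under testosterone 2.08 to 2.58. Leaving out vehicle animal 5 thus still leaves vehicle animals 3 and 4 above every hormone-treated animal on these markers. On Fdft1, estradiol benzoate animal 3 and vehicle animal 5 lie at the ends of their groups, and results are given with and without them. In whole arteries, fewer cells of a type and less RNA per cell cannot be told apart.

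No sterol synthesis probe passed the test in any comparison of the groups. The probe of Fdft1 with the larger difference was higher under both hormones, by 1.42-fold under estradiol benzoate and 1.37-fold under testosterone, with no overlap with vehicle. Pmvk was lower under both hormones, on a probe whose duplicate arrays disagreed more than those of most probes. Sqle, Fdps and Idi1 had overlapping groups throughout. Testing used limma with Benjamini-Hochberg adjustment over 10228 probes and an adjusted p under 0.05.

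For estradiol benzoate minus vehicle, 0 of 8 member probes were called, and 0% of all probes were, although 1376 of these had an unadjusted p under 0.05. For testosterone minus vehicle, 0 of 8 were called, beside 0.0489% of all probes. For estradiol benzoate minus testosterone, 0 of 8 were called, beside 0.0293%, and the F test for any difference among the 3 groups called 0 of 8, beside 0.00978%. At an unadjusted p under 0.05, 1 member probe was higher under estradiol benzoate than under vehicle (6.77% of all probes) and 0 were lower (6.69%). Under testosterone 2 were higher than under vehicle (6.62%), both of them probes of Fdft1, and 1, Pmvk, was lower (7.43%). Between the hormones 0 differed (4.13%). The median difference of the 8 probes was -0.08 on the log2 scale for estradiol benzoate minus vehicle, 0.02 for testosterone minus vehicle and -0.02 for estradiol benzoate minus testosterone, beside -0.01, -0.01 and -0.00 over all probes. Leaving out 1 animal moved these medians over -0.16 to 0.02, -0.05 to 0.09 and -0.15 to 0.06 in the same order, so that their sign was not settled. Both comparisons with vehicle use the same 4 vehicle animals.

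**Figure D1:**
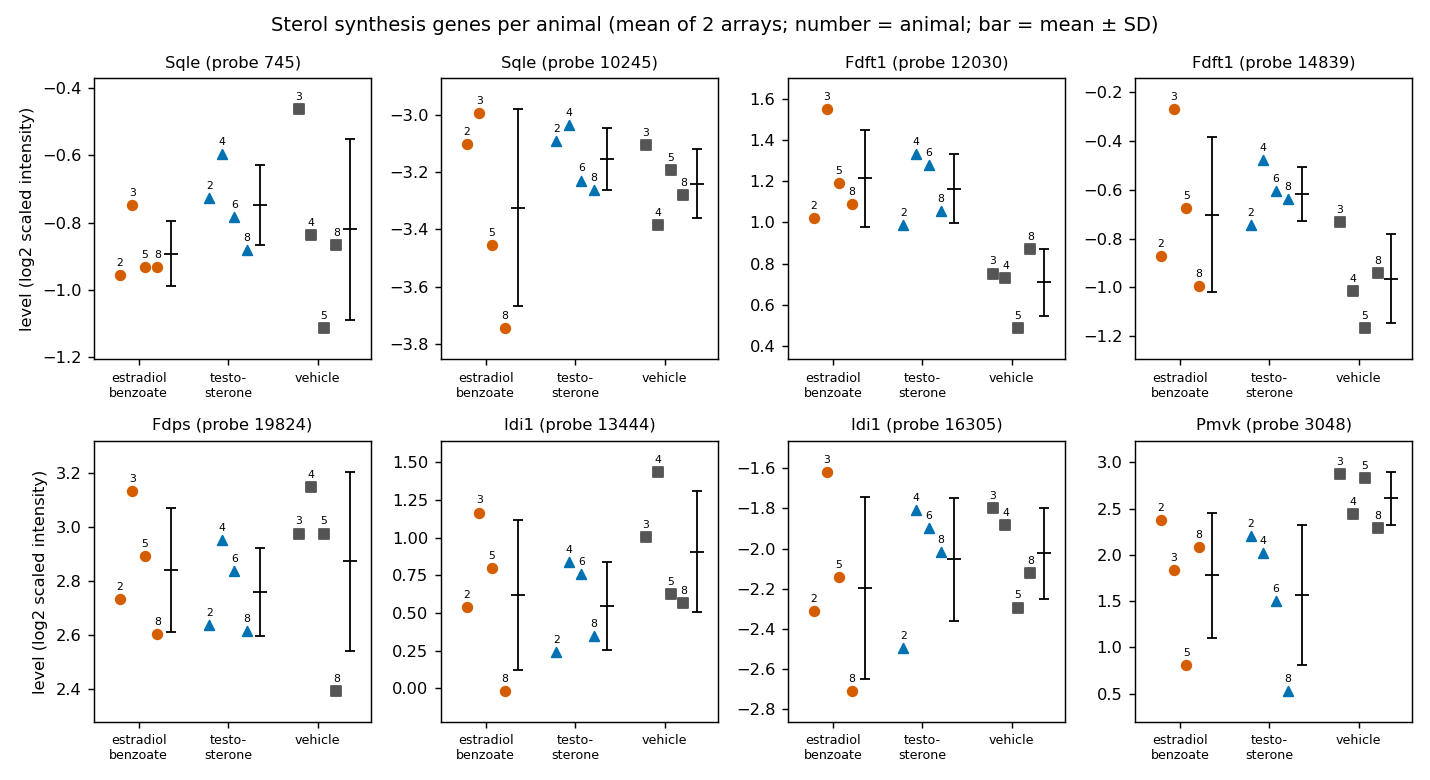
Levels of the 8 probes in each animal. The y axis is log2 scaled intensity with a range of its own in each panel, points are animals with their numbers, and bars are group means ± SD (n = 4). Fdft1 probe 12030 lies between 0.99 and 1.55 under the hormones and between 0.49 and 0.87 under vehicle, and Pmvk lies between 0.53 and 2.37 under the hormones and between 2.29 and 2.87 under vehicle.

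At the branch to sterols, Fdft1 probe 12030 read 1.02, 1.55, 1.19 and 1.09 in estradiol benzoate animals 2, 3, 5 and 8. It read 0.99, 1.33, 1.28 and 1.06 in testosterone animals 2, 4, 6 and 8. It read 0.75, 0.73, 0.49 and 0.87 in vehicle animals 3, 4, 5 and 8. All 8 hormone-treated animals were thus above all 4 vehicle animals, and the hormone groups overlapped, with estradiol benzoate animal 3 above every testosterone animal. Means were 1.21 ± 0.23 under estradiol benzoate, 1.16 ± 0.17 under testosterone and 0.71 ± 0.16 under vehicle (SD, n = 4 each). Estradiol benzoate minus vehicle was 0.50 (SE 0.13, 95% interval 0.21 to 0.80, limma adjusted p = 0.192), and testosterone minus vehicle was 0.45 (SE 0.13, 95% interval 0.16 to 0.75, limma adjusted p = 0.235). Exact permutation over animals, two-sided, gave p = 0.0286 in each, which is the smallest value that 4 against 4 allows and is not adjusted for the number of probes. Groups that did not overlap in this direction were found for 3.53% of all probes under estradiol benzoate and for 2.45% under testosterone. Estradiol benzoate minus testosterone was 0.05 (95% interval -0.24 to 0.34), a difference smaller than the spread between animals.

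Vehicle animal 5, the one with the highest hepatocyte markers, was the lowest of the 12 on this probe. Estradiol benzoate animal 3, the one with the highest acinar markers, was the highest. Leaving out any 1 animal gave 0.39 to 0.57 for estradiol benzoate minus vehicle and 0.38 to 0.51 for testosterone minus vehicle. Without both of these animals, a setting chosen after seeing the data, estradiol benzoate minus vehicle was 0.32 (limma adjusted p = 0.490) and testosterone minus vehicle was 0.38. Several marker lists also leaned in a single direction between hormone-treated and vehicle arteries, with 0 genes called in any of them. Of all probes, 47.6% were higher than under vehicle under estradiol benzoate and 47.7% under testosterone. Smooth muscle, endothelial and fibroblast lists went both ways. Under estradiol benzoate 3, 3 and 1 of their genes were higher and 3, 6 and 2 lower. Under testosterone 1, 4 and 2 were higher and 5, 5 and 1 lower. White adipocyte markers were higher in 9 of 11 measured genes under each hormone, with summed intensities of 128 to 142 under estradiol benzoate, 111 to 169 under testosterone and 118 to 132 under vehicle; the brightest, Fabp4 and Adipoq, differed from vehicle by 0.30 and -0.08 under estradiol benzoate. Lymphocyte markers were higher in 8 of 8 under each hormone, with summed intensities of 0.855 to 1.44, 0.879 to 1.25 and 0.651 to 0.837 in the same order. Brown adipocyte markers were higher in 5 of 5 under each hormone, and acinar markers in 8 of 8 under estradiol benzoate and 6 of 8 under testosterone. Hepatocyte markers were lower in 11 of 12 under each hormone, and Tat and Cyp2e1, the brightest, differed by 0.05 and -0.54 under estradiol benzoate. Their part in the Fdft1 difference was not tested.

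Fdft1 probe 14839 separated the groups less clearly. It read -0.87, -0.27, -0.67 and -1.0 in estradiol benzoate animals 2, 3, 5 and 8. It read -0.75, -0.48, -0.60 and -0.64 in testosterone animals 2, 4, 6 and 8. It read -0.73, -1.01, -1.17 and -0.94 in vehicle animals 3, 4, 5 and 8. The groups overlapped here, since vehicle animal 3 lay above 2 estradiol benzoate animals and 1 testosterone animal. Testosterone minus vehicle was 0.35 (SE 0.15, unadjusted p = 0.0410, limma adjusted p = 0.344), and estradiol benzoate minus vehicle was 0.26 (SE 0.15, limma adjusted p = 0.451). The estradiol benzoate value depended on animal 3 and was 0.12 without it. Without estradiol benzoate animal 3 and vehicle animal 5 together, it was 0.05 and the testosterone value was 0.28. The 2 probes of Fdft1 gave differences of the same sign against vehicle, of unlike size.

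**Figure D2:**
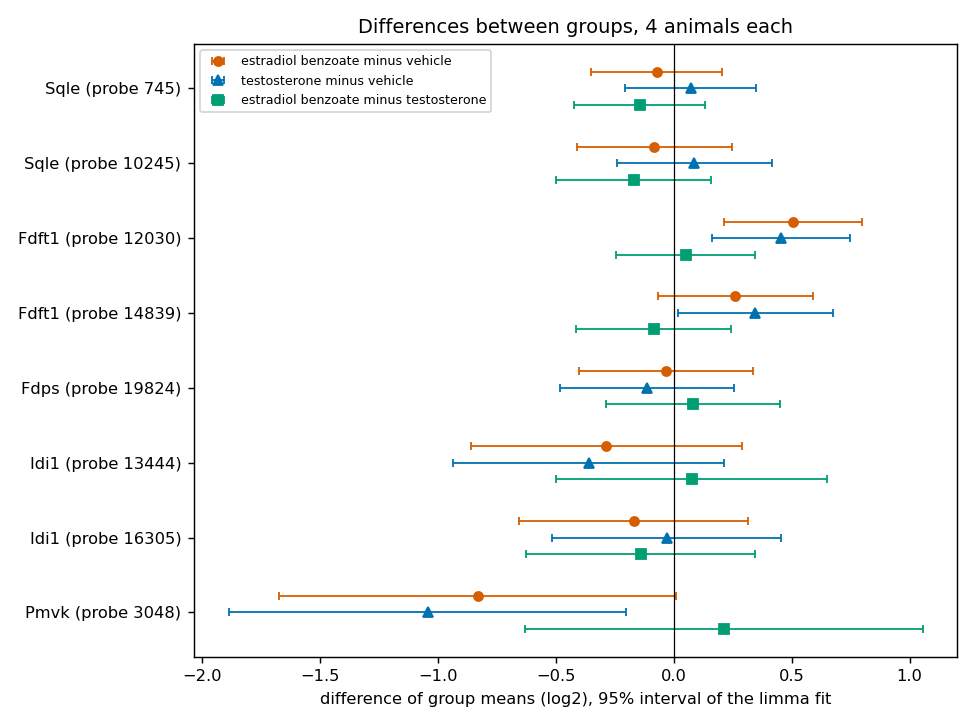
Differences of group means for the 8 probes on the log2 scale, with 95% intervals of the limma fit (bars), for estradiol benzoate minus vehicle, testosterone minus vehicle and estradiol benzoate minus testosterone. The intervals of Fdft1 probe 12030 lie above 0 for both hormones against vehicle, that of Pmvk lies below 0 for testosterone, and every interval between the 2 hormones includes 0.

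Upstream in the pathway, Pmvk, phosphomevalonate kinase, read 2.37, 1.84, 0.81 and 2.08 in estradiol benzoate animals 2, 3, 5 and 8. It read 2.21, 2.02, 1.5 and 0.53 in testosterone animals 2, 4, 6 and 8. It read 2.87, 2.44, 2.83 and 2.29 in vehicle animals 3, 4, 5 and 8. All testosterone animals lay below all vehicle animals, as did estradiol benzoate animals 3, 5 and 8, while estradiol benzoate animal 2 lay above vehicle animal 8. Means were 1.78 ± 0.68 under estradiol benzoate, 1.56 ± 0.75 under testosterone and 2.61 ± 0.29 under vehicle (SD, n = 4 each). Testosterone minus vehicle was -1.04 (SE 0.39, 95% interval -1.89 to -0.20, unadjusted p = 0.0196, limma adjusted p = 0.297), with an exact permutation p of 0.0286, and 3.14% of all probes had non-overlapping groups in this direction. Estradiol benzoate minus vehicle was -0.83 (SE 0.39, limma adjusted p = 0.376). No member probe had non-overlapping groups between the hormones, beside 3.05% of all probes.

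The duplicate arrays show how far these Pmvk values can be read. The linear intensities on arrays AA and AB were 0.837 and 3.69 in estradiol benzoate animal 5 and 0.505 and 4.11 in testosterone animal 8, the animals with the lowest levels. They were 7.71 and 6.93 in vehicle animal 3 and 7.77 and 3.80 in vehicle animal 4, and vehicle animal 5 had a value, 7.13, on array AA only. The same cRNA thus gave values several-fold apart, and the low levels came from array AA. The SD between duplicates was 0.898 for Pmvk on the log2 scale (11 pairs), larger than for 96.3% of all probes, against 0.0911 to 0.186 for the other member probes and a median of 0.119 over all probes. From AA arrays alone, the difference from vehicle was -1.15 under estradiol benzoate and -1.71 under testosterone, and from AB arrays alone it was -0.42 and -0.28. Leaving out estradiol benzoate animal 5 gave -0.51 for estradiol benzoate, and leaving out testosterone animal 8 gave -0.70 for testosterone.

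**Figure D3:**
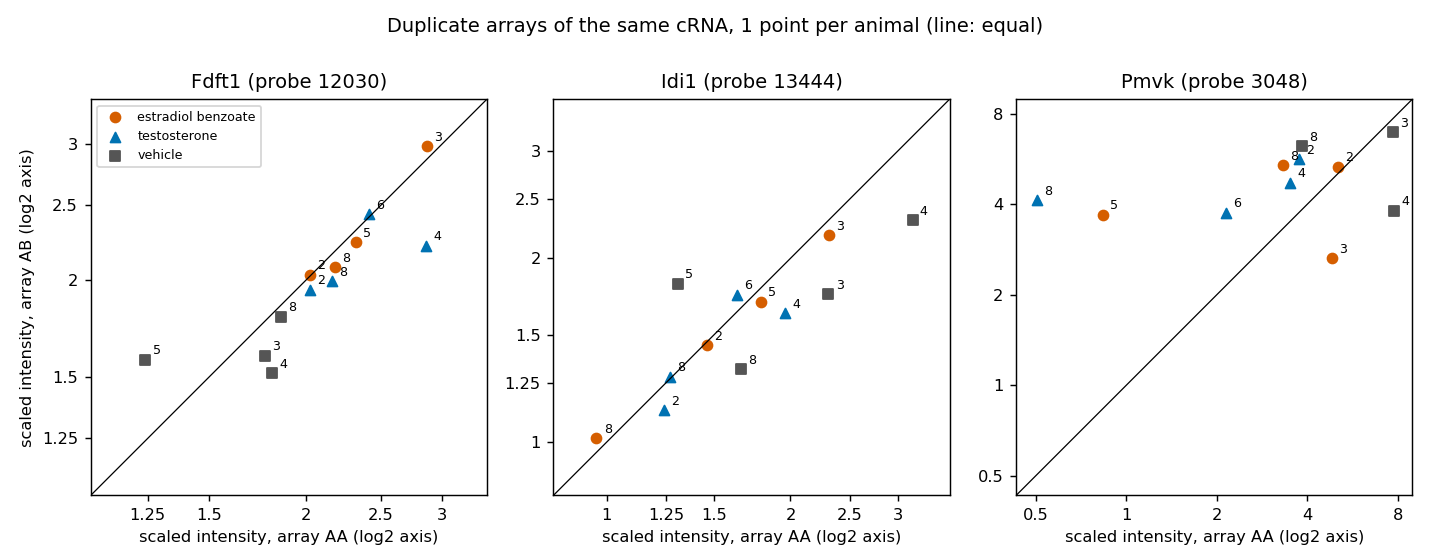
Scaled intensity of the same cRNA on array AA (x axis) and array AB (y axis), both log2 axes, for Fdft1 probe 12030, Idi1 probe 13444 and Pmvk. Points are animals with their numbers and the line marks equal values; vehicle animal 5 has no AB value for Pmvk and is not drawn there. Fdft1 points lie near the line, while Pmvk in testosterone animal 8 reads 0.505 on AA and 4.11 on AB.

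Idi1, which isomerises isopentenyl diphosphate, varied widely within each group. Probe 13444 read 0.54, 1.17, 0.80 and -0.02 in estradiol benzoate animals 2, 3, 5 and 8. It read 0.24, 0.84, 0.76 and 0.35 in testosterone animals 2, 4, 6 and 8. It read 1.01, 1.44, 0.62 and 0.56 in vehicle animals 3, 4, 5 and 8. The groups overlapped, and the spread of 0.41 (residual SD, log2) exceeded the differences from vehicle, which were -0.29 under estradiol benzoate (95% interval -0.86 to 0.29) and -0.36 under testosterone (95% interval -0.93 to 0.21). The other Idi1 probe, 16305, ranged over -2.71 to -1.62 under estradiol benzoate, -2.49 to -1.81 under testosterone and -2.29 to -1.80 under vehicle, with differences from vehicle of -0.17 and -0.03. The 95% intervals of probe 13444 include a fall of 0.86 and a rise of 0.29 under estradiol benzoate, so that a moderate change in either direction was not detectable with 4 animals per group.

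Fdps, farnesyl diphosphate synthase, read 2.73, 3.14, 2.89 and 2.6 in estradiol benzoate animals 2, 3, 5 and 8. It read 2.64, 2.95, 2.84 and 2.62 in testosterone animals 2, 4, 6 and 8. It read 2.98, 3.15, 2.98 and 2.39 in vehicle animals 3, 4, 5 and 8. The highest and the lowest of all 12 animals were both vehicle animals, and the groups overlapped throughout. The difference from vehicle was -0.03 under estradiol benzoate (95% interval -0.40 to 0.34) and -0.11 under testosterone (95% interval -0.48 to 0.25). RefSeq lists 5 related pseudogene symbols for Fdps and 1 for Idi1, and whether these probes also detect such copies was not tested.

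Sqle, the oxidising step after squalene, lay between -0.95 and -0.75 under estradiol benzoate, -0.88 and -0.60 under testosterone and -1.11 and -0.46 under vehicle on probe 745. On probe 10245 it lay between -3.75 and -2.99, -3.26 and -3.04, and -3.39 and -3.10 in the same groups. Differences from vehicle were -0.07 and 0.07 on probe 745 and -0.08 and 0.09 on probe 10245, for estradiol benzoate and testosterone in that order. All were smaller than the spread between animals, and the 95% intervals of both probes lay between -0.41 and 0.41 against vehicle. Fdft1 and Sqle thus stand next to each other in the pathway with differences of unlike size, but the contrast between the genes was not tested.

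Idi1 varied with Fdft1 and with Fdps from animal to animal, though not on every pair of probes. Each probe was taken as its deviation from the group mean, and Pearson's r and Spearman's rho were computed over the 12 animals for all 28 pairs of probes, with exact permutation within groups and Benjamini-Hochberg adjustment over the 28. All 21 pairs without Pmvk had a positive r, from 0.31 to 0.90, but r turned negative, -0.26 to -0.02, in 5 of them, all with Sqle probe 10245, when the 2 animals farthest from the median of that probe were left out. Of the 28, 6 had an adjusted p under 0.05 for r, and 5 of these also for rho. Fdps and Idi1 probe 13444 had r = 0.83 and rho = 0.87 (exact permutation p = 0.00427 and 0.00268, adjusted 0.0276 and 0.0188). Fdft1 probe 14839 and Idi1 probe 16305 had r = 0.90 and rho = 0.88 (exact permutation p = 0.000434 and 0.00116, adjusted 0.0122 and 0.0188), and Fdft1 probe 12030 and Idi1 probe 16305 had r = 0.80 and rho = 0.83 (adjusted p = 0.0459 and 0.0292 by exact permutation). The other 2 pairs were the probes of one gene, with r = 0.88 for Idi1 and 0.85 for Fdft1. The sixth, Sqle probe 745 with Fdft1 probe 14839, had r = 0.70 (adjusted p = 0.0276 by exact permutation) and rho = 0.60 (adjusted p = 0.176). Fdps did not pass with either Fdft1 probe. Its r was 0.31 with probe 12030 and 0.49 with probe 14839 (adjusted p = 0.497 and 0.353 by exact permutation).

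Leaving out the 2 animals farthest from the median on the x axis gave r of 0.65 to 0.84 in the 5 pairs that passed for both measures. Since both probes of a pair were read on the same arrays, r was also taken with each probe on a different array, a setting chosen after seeing the data. It was 0.64 to 0.91 over these 5 pairs. For Fdps and Idi1 probe 13444, estradiol benzoate animal 3, testosterone animal 4 and vehicle animal 4 were the highest of their groups, and estradiol benzoate animal 8 and vehicle animal 8 the lowest. The Pmvk probe did not share this order: its r with the other 7 probes was -0.24 to 0.37, and -0.86 to 0.45 with the probes read on different arrays. Since its duplicate arrays disagreed widely (SD 0.898, log2), these values cannot show whether the gene itself varied apart from the others.

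**Figure D4:**
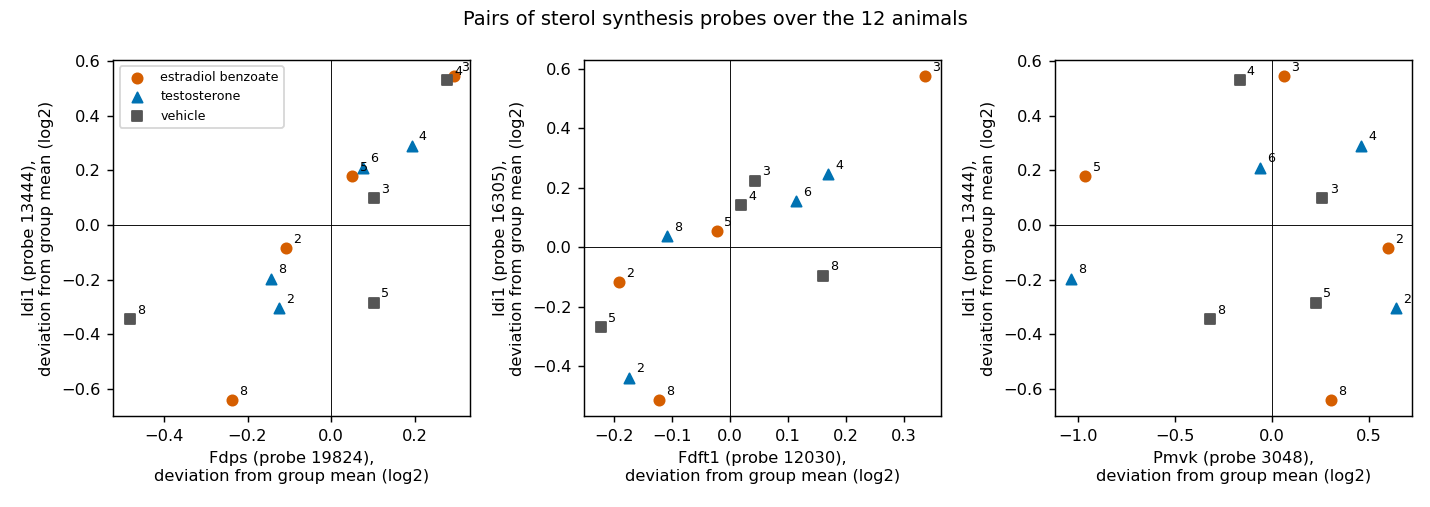
Deviation from the group mean (log2) for Fdps with Idi1 probe 13444, Fdft1 probe 12030 with Idi1 probe 16305, and Pmvk with Idi1 probe 13444. Points are the 12 animals with their numbers; r is 0.83 in the first panel, 0.80 in the second and -0.12 in the third.

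Promoters are shown for Fdps and Idi1 because Fdps and Idi1 probe 13444 varied together and both genes have a window in the reference. With Idi1 probe 16305, Fdps had r = 0.65 and rho = 0.75 (adjusted p = 0.0992 and 0.0569 by exact permutation). RefSeq promoter windows, of 250 bases before to 50 after a gene's start (build GRCr8), were matched by symbol for 3 of the 6 genes, Hmgcs1, Fdps and Idi1. The 250 bases before the start are printed 5′ to 3′ on the gene's strand for Fdps, at chr2:176804817-176805066 on the minus strand, and for Idi1, at chr17:66547525-66547774 on the minus strand. Capitals mark the NF-Y box, CCAAT or its reverse complement ATTGG, bound by a factor known to act beside SREBP at sterol genes.
Fdps: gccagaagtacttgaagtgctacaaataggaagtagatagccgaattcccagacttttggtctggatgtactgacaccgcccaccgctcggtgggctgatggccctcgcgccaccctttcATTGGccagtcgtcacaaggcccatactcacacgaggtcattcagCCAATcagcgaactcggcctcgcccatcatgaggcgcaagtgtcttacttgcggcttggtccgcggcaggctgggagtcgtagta
Idi1: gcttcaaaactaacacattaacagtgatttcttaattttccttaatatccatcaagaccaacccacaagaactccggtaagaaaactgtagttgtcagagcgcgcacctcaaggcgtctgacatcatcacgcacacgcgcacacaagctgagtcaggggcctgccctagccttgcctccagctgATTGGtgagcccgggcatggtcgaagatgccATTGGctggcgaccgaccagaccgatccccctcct
Each window held 2 NF-Y boxes, at 130 and 85 bases before the start in Fdps and at 66 and 35 bases in Idi1. The Hmgcs1 window also held 2, at 188 and 133 bases before the start. At least 2 boxes occurred in 11.2% of 33469 RefSeq windows of the same length, and at least 1 in 37.5%. A sterol regulatory element core, searched as CACNCCAC or GTGGNGTG, was in 0 of the 3 windows (5.8% of all windows), and the E-box CACGTG was in 0 of 3 (6.42%). Other forms of the sterol regulatory element were not searched, so this count does not show that the windows lack one. A match says only that the letters are present.

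Other genes of sterol synthesis went both ways against vehicle. Of 17 listed, 10 were measured, 6 were higher and 4 lower under estradiol benzoate (median 0.05), and 5 were higher and 5 lower under testosterone (median -0.01), with 0 passing the test. Ebp, the sterol isomerase of a late step, had the smallest p in both comparisons. It ranged over -1.05 to -0.88 under estradiol benzoate, -1.04 to -0.84 under testosterone and -1.25 to -1.14 under vehicle, with differences of 0.22 (limma adjusted p = 0.282) and 0.26 (limma adjusted p = 0.233) against vehicle. Hsd17b7, a reductase of the same pathway, differed from vehicle by -0.03 under estradiol benzoate and -0.31 under testosterone (unadjusted p = 0.0321, limma adjusted p = 0.324), and by 0.28 between estradiol benzoate and testosterone (unadjusted p = 0.0487). Cyp51, which demethylates lanosterol, differed from vehicle by -0.27 under estradiol benzoate and -0.14 under testosterone, and Lss, which closes the sterol ring, by 0.09 and 0.06. Msmo1, which oxidises the methyl groups of early sterols, differed by 0.18 and 0.27. HMG-CoA reductase, the rate-limiting enzyme, and Dhcr7, which reduces a late precursor to cholesterol, were not analysed here.

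In the isoprenoid branch after Fdps, 8 of 13 listed genes were measured, with medians of 0.01 under estradiol benzoate and 0.02 under testosterone and 0 called. Nus1, a subunit of the enzyme that builds dolichol chains, differed from vehicle by -0.21 and -0.26 (limma adjusted p = 0.351 and 0.277). Among genes of cholesterol uptake and transport, 8 of 19 were measured and 0 were called. Under estradiol benzoate 4 were higher and 4 lower (median 0.15). Vldlr, a receptor for triglyceride-rich lipoproteins, ranged over 1.87 to 2.22 under estradiol benzoate, 1.5 to 1.79 under testosterone and 1.37 to 1.60 under vehicle. Estradiol benzoate animals did not overlap with either other group, with a difference of 0.48 from vehicle (SE 0.10, limma adjusted p = 0.127) and of 0.33 from testosterone (limma adjusted p = 0.708). Of all probes, 3.53% were higher under estradiol benzoate than under vehicle without overlap, and 3.05% did not overlap between the hormones in either direction. Scarb1, the receptor for high-density lipoprotein, differed from vehicle by 0.42 under estradiol benzoate (limma adjusted p = 0.336) and 0.06 under testosterone. Npc2, which hands cholesterol out of lysosomes, differed by -0.28 and -0.37. The LDL receptor and Npc1 were not analysed here.

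Of genes that sense sterols, 6 of 12 were measured, and 0 had an unadjusted p under 0.05 against vehicle. Insig2, which holds SREBP in the endoplasmic reticulum, differed by 0.05 and 0.08. Srebf1, Srebf2, Scap and Insig1 were not analysed here. Of genes of efflux and esterification, 7 of 16 were measured, with medians of -0.01 and -0.00. Cyp7a1, the rate-limiting enzyme of bile acid synthesis and one of the hepatocyte markers, differed by -2.17 and -1.82 (limma adjusted p = 0.311 and 0.355). Its probe was dim, with a mean of -5.63 over the animals, and vehicle animals spread widely. It ranged over -7.47 to -5.98 under estradiol benzoate, -8.06 to -4.96 under testosterone and -6.25 to -2.15 under vehicle. Cyp7b1, an oxysterol hydroxylase, differed by -0.47 between estradiol benzoate and testosterone (limma adjusted p = 0.691).

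Fatty acid synthesis, which shares acetyl-CoA and SREBP control with the sterol pathway, stood further from 0. Of 11 measured genes, 10 were higher under estradiol benzoate than under vehicle (median 0.72) and 9 under testosterone (median 0.19), with 0 passing the adjusted test. At an unadjusted p under 0.05, 6 were higher under estradiol benzoate (6.77% of all probes) and 1 under testosterone (6.62%). Summed intensities were 96.2 to 148 under estradiol benzoate, 65.5 to 115 under testosterone and 50.5 to 95.3 under vehicle. The lowest was vehicle animal 5, the one with the highest hepatocyte markers, and the values are not given without it. Under estradiol benzoate, Fasn, fatty acid synthase, differed from vehicle by 0.84 (limma adjusted p = 0.245), Me1, which supplies NADPH, by 1.08 (limma adjusted p = 0.284), and Acss2, which makes acetyl-CoA from acetate, by 0.53 (limma adjusted p = 0.200). Under testosterone the same genes differed by 0.36, 0.37 and 0.02. The difference between the 2 gene lists was not tested, and the part of the white adipocyte markers given above in these values was not tested.

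**Figure D5:**
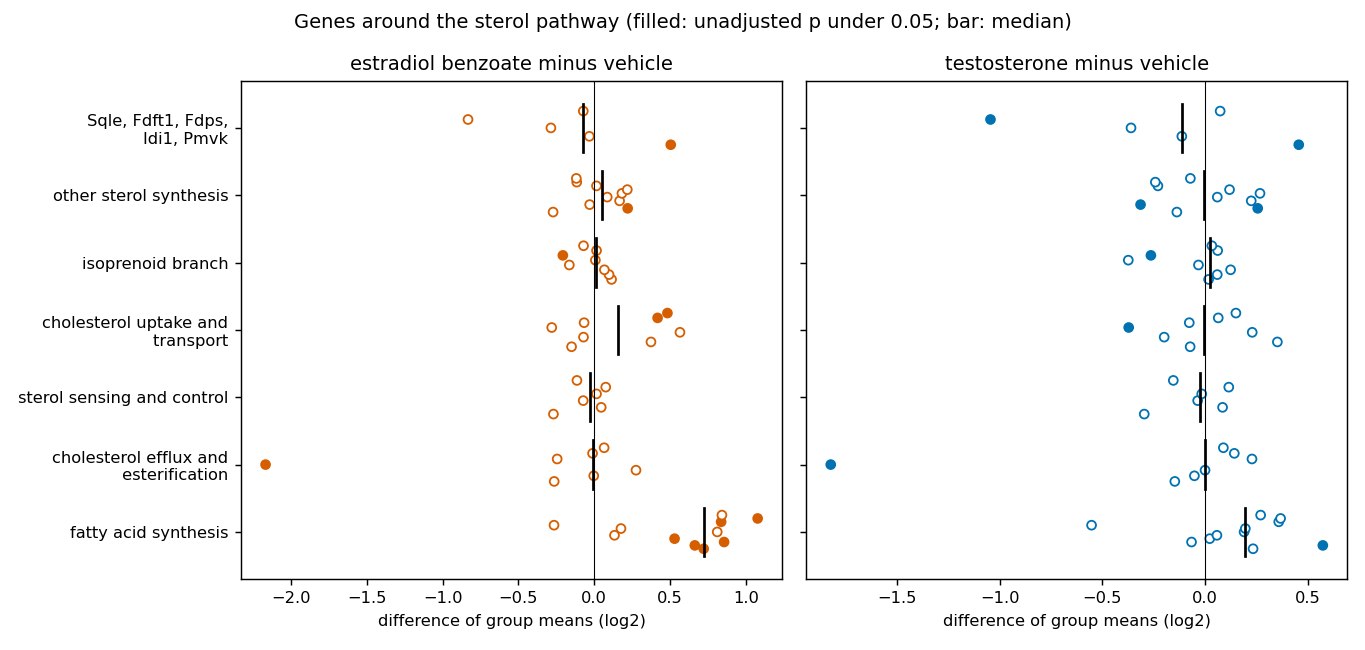
Differences from vehicle (log2) for estradiol benzoate and testosterone in genes around the sterol pathway, 1 point per gene by its brightest probe. Filled points have an unadjusted p under 0.05 and bars are list medians. The fatty acid synthesis median is 0.72 under estradiol benzoate and 0.19 under testosterone. The point near -2 is Cyp7a1, whose probe was dim and varied widely among vehicle animals.

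Likeness to the members was measured as Pearson's r over 12 animals with the mean profile of the 5 genes, among 6244 genes. The 5 highest were S100a1 (0.95), Pcif1 (0.88), Nudt14 (0.86), Tnfsf11 (0.85) and Larp1b (0.84). Without Pmvk, a setting chosen after seeing the data, they were Ptges2 (0.82), Spcs1 (0.81), Ckap4 (0.81), Dot1l (0.75) and Hdac6 (0.74). No gene was in both sets, so the likeness depended on whether the Pmvk probe was included.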

How the data were processed

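Mesenteric artery cRNA of 12 animals in 3 groups was measured on 24 CodeLink arrays. The deposited values are linear intensity per probe, scaled by the authors; background correction and scaling method: not given in the sources used here. Values at or below 0 (327) were treated as missing, log2 was taken without a pseudocount, and the 2 arrays of an animal were averaged. Gene names come from the platform annotation, with a single symbol for 7294 of 10399 probes, several for 88 and none for 3017. The members, pathway and marker lists and the naming rule (all member probes; per other list up to 3 genes per comparison by p, and fixed key genes; 2 brightest markers; 5 most alike genes) were chosen with earlier results of these data known.

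A group-means model over all 12 animals was fitted with limma (version 3.58.1, under R 4.3.3; 9 residual and 2.51 prior degrees of freedom) to the 10228 probes that had 3 or more animals per group with a value, two-sided, with Benjamini-Hochberg adjustment over all of them. For genes outside the members the brightest probe stood for the gene. Vehicle animal 5 entered the Pmvk fit with 1 array. The code of the fit was run on simulated data, with values drawn independently and no effect shared between probes by tissue or array. That run checks the code and does not bear on the results above. The main fit did not pair animals by replicate number. Over 7 same-numbered pairs the correlation of deviations was -0.12 to 0.30 and exceeded 0.1 in 2. The median over the other pairs of animals from different groups was -0.02. These correlations cannot exclude a pairing or a batch shared by number. Alternatives covered scaling, filters, missing values, single arrays, the arrays with animal as a random block, and leaving out each animal. The number of animals limits the precision.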

Additional observations from a re-analysis of the deposited data

Results flagged for a closer look

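Sqle probe 745 in estradiol benzoate animal 3, at -0.75, stood apart from the other 3 animals of its group, of which the nearest was at -0.93. The gap was 0.885 of the group's range, above the 95% Dixon value of 0.829 for 4 samples. It was 1 of 24 groups of values examined (8 probes in 3 groups), and chance marks about 1 in 20. This animal was also the highest of its group on the other Sqle probe and on every probe of Fdft1, Fdps and Idi1, and was the one with a summed acinar marker intensity of 100.6.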

How the results depend on the processing

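Member probes passing the adjusted test numbered 0 in every comparison and under every alternative except 1: with the 24 arrays and the animal as a random block, 1 probe, Fdft1 12030, passed for estradiol benzoate minus vehicle (0.50, limma adjusted p = 0.0429; for testosterone minus vehicle the limma adjusted p was 0.0883). That setting called 226, 151 and 40 probes in all for estradiol benzoate minus vehicle, testosterone minus vehicle and estradiol benzoate minus testosterone, against 0, 5 and 3 without it; leaving out vehicle animal 5 called 45 for testosterone. Over all alternatives the adjusted p of Fdft1 12030 ranged from 0.0429 to 0.490 for estradiol benzoate and from 0.0883 to 0.406 for testosterone, and its differences stayed above 0. With the replicate number as a block it was 0.58 and 0.49, and no member was called; that block changed no other call of a member.

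Over 642 member results under the alternatives, 607 were counted as unchanged in direction and side of the threshold. Another 34 changed sign, and the cause was not tested. No member difference passed in the main fit, so a change of sign could only fall on a difference that had not passed. The 642 include the exact permutation tests, which keep the main difference and so were counted as unchanged in every case. Fdps estradiol benzoate minus vehicle became 0.035 with quantile normalization, 0.0036 with 75th percentile scaling and 0.068 with AB arrays only or with the replicate block, and its testosterone difference became 0.052 with AB arrays only. Idi1 16305 testosterone minus vehicle became 0.0047 with 75th percentile scaling and 0.11 with the replicate block. From AA arrays only, Sqle 745 estradiol benzoate minus vehicle was 0.037 and Fdft1 12030 between the hormones -0.0095; from AB arrays only, Pmvk between the hormones was -0.14. Without vehicle 5 and estradiol benzoate 3, Sqle 745 testosterone minus vehicle was -0.026, and the differences between the hormones were -0.0625 for Fdft1 12030, -0.0165 for Fdps and -0.11 for Idi1 13444. Leaving out 1 animal gave, for estradiol benzoate minus vehicle, -0.17 to 0.047 (Sqle 745), -0.19 to 0.057 (Sqle 10245), -0.193 to 0.0599 (Fdps) and -0.36 to 0.0006 (Idi1 16305). For testosterone minus vehicle it gave -0.026 to 0.19 (Sqle 745) and -0.12 to 0.12 (Idi1 16305). Between the hormones it gave -0.0625 to 0.11 (Fdft1 12030), -0.23 to 0.012 (Fdft1 14839), -0.0165 to 0.16 (Fdps), -0.11 to 0.29 (Idi1 13444), -0.33 to 0.031 (Idi1 16305) and -0.13 to 0.53 (Pmvk).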
